A study of Mus musculus with 4 samples.

Results

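The clustered histone genes are the genes whose symbols begin with Hist and a digit, most of them packed into gene clusters. Of 69 such symbols in the deposited RNA-seq tables, 68 scored above 0 somewhere among the 4 samples and are described here, out of 30041 genes listed and 21582 with a score above 0. The remaining one, Hist1h1t, was listed at 0 throughout. The symbols place 5 members in the H1 class, 19 in H2A, 19 in H2B, 12 in H3 and 13 in H4. Purified splenic B cells of C57BL/6 mice were cultured with LPS, a ligand of TLR4, for 72 h, and control B cells were compared with B cells lacking IκB-ζ, the nuclear IκB protein encoded by Nfkbiz. Each group had 2 samples. Per the study's methods the cKO mice were Nfkbiz fl/Δ Mb1 cre/+, with Cre expressed from the B cell gene Mb-1 (Cd79a), and the control mice were Nfkbiz fl/Δ, so that both groups carried one deleted and one loxP-flanked allele and only the cKO group carried Cre. B cells were isolated by depletion of cells bearing CD43, CD4 or Ter-119, and libraries were made from poly(A)-selected RNA. The labels do not say whether the samples of a group came from separate mice or cultures, so p-values measure the spread between these samples, which may be technical.

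Core histones H2A, H2B, H3 and H4 form the protein core of the nucleosome, and H1 binds the linker DNA between nucleosomes. The clustered genes are transcribed mainly in S phase, when new DNA has to be packed. Their mRNAs are the best known animal mRNAs without a poly(A) tail: they end just after a short stem-loop, which is bound by the protein SLBP and is cut with the help of the U7 small nuclear RNA. Poly(A) selection therefore recovers only part of this RNA, either carried over or from copies that end at a downstream polyadenylation site, and a score here is not a measure of the whole histone mRNA pool.

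The deposited value is an RNA-seq score with no stated unit. Low scores multiplied by exon length fell near whole multiples of a step in each sample, with 75.4 to 81.9% of them within 0.2 of a step from a whole number against 40% for evenly spread values, so the score was read as scaled to exon length and library size. If a step is 1 read, the samples held 17500000 to 19900000 reads. The score of Nfkbiz was 0.0241 and 0.0226 in control and 0.0127 and 0.0116 in cKO, a log2 fold change of -0.94 ± 0.096 (SE, n = 2 per group, limma adjusted p = 0.0282). The score covers all exons together, so it does not show the deleted exons alone. In bulk RNA, fewer cells of one kind and less RNA per cell cannot be told apart.

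The stem-loop that ends these mRNAs is shown because it stands where other mRNAs have a poly(A) tail. A match was called where a 16-base sequence GGNNNTNNTNANNNCC, with its first and last 6 bases complementary, lay on the sense strand within 100 bases after the stop codon in NCBIM37 (mm9). It was found in 62 of 66 members with an annotated stop codon (93.9%), against 68 of 21761 protein-coding genes (0.312%). The matches shown lie at chr13:23831381-23831396 (Hist1h1c, plus strand), chr13:21924898-21924913 (Hist1h2ap, minus), chr13:23776516-23776531 (Hist1h2bc, plus), chr13:22128169-22128184 (Hist1h2bk, plus), chr13:23627758-23627773 (Hist1h3g, plus) and chr13:22132835-22132850 (Hist1h4i, minus), each in the sequence just after the coding region of its gene. Capitals mark the stem-loop and lower case the 5 bases on either side.
Hist1h1c: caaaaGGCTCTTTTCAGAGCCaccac
Hist1h2ap: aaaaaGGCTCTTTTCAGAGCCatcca
Hist1h2bc: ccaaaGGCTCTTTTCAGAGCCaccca
Hist1h2bk: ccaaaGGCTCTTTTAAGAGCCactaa
Hist1h3g: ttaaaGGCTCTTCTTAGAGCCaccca
Hist1h4i: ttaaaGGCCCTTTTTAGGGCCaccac
The stem of Hist1h4i uses a different base pair from the others, and the variation in the loop is small. The 4 members with no match in this window were Hist1h2al, Hist1h2an, Hist2h2bb and Hist2h2be. The hexamer AATAAA, the usual polyadenylation signal, was present in the last 40 bases of an annotated transcript of 10 of 66 members (15.2%), against 46.8% of 47304 protein-coding transcripts. Hist1h1c, Hist1h2bc, Hist1h2bp and Hist2h2be were among those 10. Some annotated transcripts end at the stop codon, as in Hist1h2bl, with 381 exon bases and 378 coding bases before the stop codon. Others, such as Hist1h2bk, end before their own stem-loop. The last 40 bases of such transcripts cannot hold a later AATAAA, so the low share does not show that polyadenylation sites are absent.

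Members of a class are close copies of one another, which limits what the score of a single gene can show. The median identity between the coding sequences of equal length was 97.4% in H2B, 96.7% in H2A, 97.6% in H3 and 93.9% in H4. Reads were 38 bases long, and the median share of a gene's 38-base exon windows that also occurred in another member of its class was 52.0% for H2B and 67.8% for H2A, 55.5% for H3, 45.5% for H4 and 5.3% for H1. The 30 bases shown begin a 38-base window shared by 13 of 14 H2B members with 378 coding bases before the stop codon, at coding bases 235 to 264. They lie in the coding exon at chr13:23776335-23776364 (plus strand) in Hist1h2bc and at chr3:96025323-96025352 (plus) in Hist2h2be, the one member that differs. Capitals mark its differences from Hist1h2bc.
Hist1h2bc: tcccgcctggcgcattacaacaagcgctcg
Hist2h2be: tcTcgcctggcgcattacaacaagcgGtcT
The H2A window, coding bases 178 to 207, was shared by 14 of 15 members with 390 coding bases. It lies in the coding exon at chr13:21925138-21925167 (minus strand) in Hist1h2ap and at chr11:58768417-58768446 (plus) in Hist3h2a, and capitals mark the 7 bases at which Hist3h2a differs.
Hist1h2ap: acggccgagatcctggagctggcgggcaac
Hist3h2a: acTgcTgagatcctggaATtggcTggTaaT
How the authors assigned reads that fit several copies is not given in the sources used here, so the members of a class are read together rather than as independent genes. Exons of Hist2h2aa1 and Hist2h3c1, of Hist1h2bm and Hist1h2aj, of Hist1h2ac and a 5S rRNA gene, of Hist2h2ab and Gm15444, and of Hist1h4b and 4930558J22Rik also overlap, and it is not known to which gene of such a pair a read in the shared bases was counted. Of the 68 members, 67 matched the GENCODE annotation, with 54 on chromosome 13, 9 on chromosome 3, 3 on chromosome 11 and 1 on chromosome 6.

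The summed scores of the classes were very unequal. If the authors counted a read once for each copy it fits, these sums repeat reads, the more so in H2A, whose genes share the most windows, so that the order of the classes and their shares may not be those of the RNA. The summed H2A score was 0.530 and 0.518 in control and 0.500 and 0.372 in cKO, which made up 52.7 to 66.3% of the histone total. H4 followed at 0.145 to 0.170, H2B at 0.0797 to 0.158, H3 at 0.0201 to 0.0313 and H1 at 0.00710 to 0.0136. Together the 68 members held 0.114 to 0.143% of all scores in a sample. The highest single scores belonged to H2A genes with nearly equal values: Hist1h2ah had 0.0450 and 0.0441 in control and 0.0414 and 0.0302 in cKO. By contrast, no H3 gene reached 0.005 in any sample, and the H3 member with the highest mean, Hist1h3b, was at 0.00352 and 0.00211 in control and 0.00255 and 0.00207 in cKO.

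**Figure D1:**
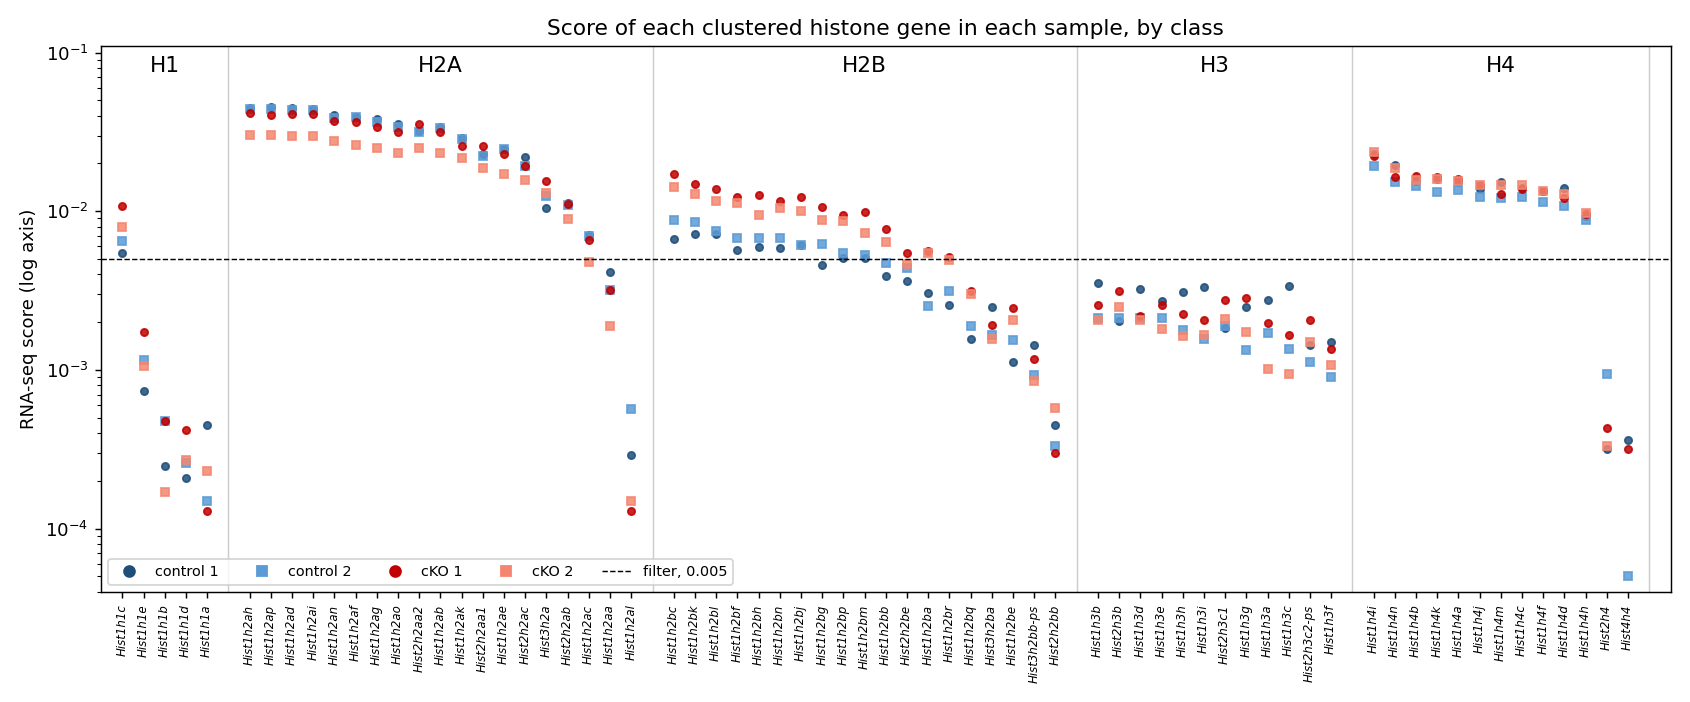
RNA-seq score (log axis, no stated unit) of each of the 68 members in each sample, ordered by mean score within its class. The dashed line is the filter of 0.005, and scores of 0 are not drawn (Hist4h4 in cKO 2). In H2B most red cKO points lie above the blue control points, while in H2A the cKO 2 squares lie lowest for most genes.

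To compare cKO with control, genes whose highest score was 0.005 or more (the filter) were tested with limma on log2(score + 0.0001), and p-values were adjusted over all 9727 such genes by the method of Benjamini and Hochberg. Of these genes, 2.07% passed an adjusted p of 0.05, 0.812% as higher and 1.25% as lower in cKO. The test included 43 members, namely 1 H1, 17 H2A, 14 H2B and 11 H4 genes. The other 25, with all 12 H3 genes among them, did not reach the filter. Before any filter, both cKO scores lay above both control scores for 27 of the 68 members and below for 13, where 23.1% of all genes with a score above 0 lay above and 21.8% below. Among members past the filter the counts were 21 above and 12 below, where 28.1% and 30.1% of all genes tested lay so. An unadjusted p under 0.05 was reached by 15 of the 43 members, where 22.3% of all genes tested reached it.

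The H2B genes had the higher scores in cKO. Both cKO samples were above both controls for 16 of the 19 H2B members, and the other 3 overlapped. Of all genes with a score above 0, 23.1% lay above. Of the 14 H2B members past the filter, 5 rose at the adjusted threshold, where 0.812% of all genes tested did. Of the same 14, 13 had an unadjusted p under 0.05, where 10.8% of all genes tested did so on the higher side. Their median log2 fold change was 0.80 (range 0.33 to 1.02), beside -0.01 for all genes tested. Since 4 of them (Hist1h2ba, Hist1h2bb, Hist1h2br and Hist2h2be) passed the filter only through their cKO scores, these counts are not counts over the class. Over all 19 without the filter, the median was 0.78 (-0.22 to 1.02), and limma called 0, as it did of all 21582 genes. Of the 19, 15 had an unadjusted p under 0.05 on the higher side, where 7.71% of all 21582 genes did.

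Hist1h2bc, which had the highest mean score in the class, was at 0.00670 and 0.00879 in control and 0.0172 and 0.0143 in cKO. The groups did not overlap, and the log2 fold change was 1.02 ± 0.17 (SE, limma adjusted p = 0.0487), or 2.03-fold. Hist1h2bf was at 0.00569 and 0.00683 in control and 0.0123 and 0.0113 in cKO (0.91 ± 0.13, adjusted p = 0.0406). Hist1h2bj, with 0.00613 and 0.00612 in control and 0.0123 and 0.00998 in cKO, rose by 0.85 ± 0.14 (adjusted p = 0.0496). In these 3 genes the lower cKO sample stood well above the higher control.

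Hist1h2bl was at 0.00715 and 0.00754 in control and 0.0139 and 0.0116 in cKO (0.78 ± 0.13, limma adjusted p = 0.0478). Hist1h2bp was at 0.00510 and 0.00543 in control and 0.00947 and 0.00871 in cKO (0.78 ± 0.13, adjusted p = 0.04996, just inside the threshold). These calls sat close to the threshold, and genes with like differences sat just outside it. Hist1h2bk, at 0.00715 and 0.00854 in control and 0.0149 and 0.0128 in cKO, had a difference of 0.82 ± 0.14 with an adjusted p of 0.0514.

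Hist1h2bg had 0.00461 and 0.00626 in control and 0.0107 and 0.00886 in cKO, a difference of 0.85 ± 0.19 (limma adjusted p = 0.0961). Hist1h2ba, the H2B gene known from the testis, had 0.00304 and 0.00254 in control and 0.00559 and 0.00547 in cKO, a difference of 0.97 ± 0.21 (adjusted p = 0.0912). Neither passed the test, although the groups did not overlap in either. The number of H2B genes called was 0 without the filter, where limma called 0 of all genes in either direction. It also changed with the sample left out, as did the number called over all genes. The median difference of the class stayed between 0.69 and 0.93 when any one sample was left out.

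A few H2B members with smaller or lower values were looked at after their values were seen. Hist2h2be, with 0.9% of its windows shared, was at 0.00365 and 0.00439 in control and 0.00549 and 0.00466 in cKO (log2 difference 0.33 ± 0.20, limma adjusted p = 0.375). Hist1h2be, with 12.9% shared, was at 0.00113 and 0.00155 in control and 0.00247 and 0.00207 in cKO, a difference of 0.73 without the filter (adjusted p = 0.308). Its exons overlap those of the predicted gene Gm11398. The share is taken over all exon windows, and Hist1h2be has 2438 exon bases but only 378 coding bases. Its coding sequence is 98.41% identical to that of Hist1h2bc, so its low share does not make its coding reads unique. Hist3h2ba, on chromosome 11 and with 30.9% shared, was at 0.00251 and 0.00166 in control and 0.00193 and 0.00156 in cKO, so its groups overlapped. Hist2h2bb, with 0.7% shared the least of the class, was at 0.000450 and 0.000330 in control and 0.000300 and 0.000580 in cKO, and its groups overlapped too.

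**Figure D2:**
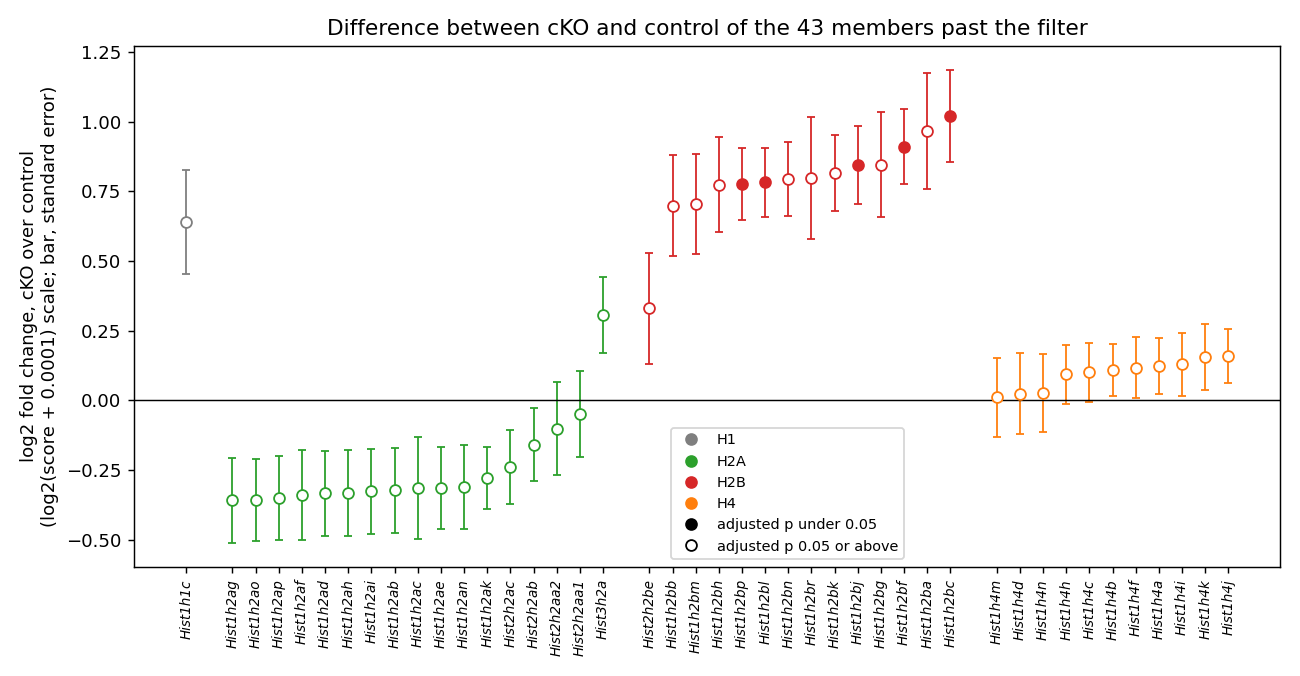
Log2 fold change of cKO over control (log2(score + 0.0001) scale, bars show the standard error, n = 2 per group) for the 43 members past the filter, by class. The 5 filled points, all H2B, had a limma adjusted p under 0.05; 16 of 17 H2A points lie below 0 and the 11 H4 points between 0.01 and 0.16.

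The H2A genes had scores on the other side. Both cKO samples were below both controls for 13 of the 19 H2A members and above for 1 (Hist3h2a), and 5 overlapped. Among all genes with a score above 0, 21.8% lay below and 23.1% above. Of the 17 H2A genes past the filter, 16 had a log2 fold change below 0, where 51.8% of all genes tested did. None passed the adjusted threshold in limma, and 1 (Hist1h2ak, -0.28 ± 0.11) had an unadjusted p under 0.05, where 11.5% of all genes tested did so on the lower side. The median was -0.32 (range -0.36 to 0.31).

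The difference came unequally from the cKO samples. Hist1h2ap was at 0.0453 and 0.0439 in control, 0.0406 in cKO 1 and 0.0300 in cKO 2, a difference of -0.35 ± 0.15 (limma adjusted p = 0.241). Hist1h2ah, with the values given above, had -0.33 ± 0.15 (adjusted p = 0.272). In both, the control samples lay within 1.03-fold of each other while the cKO samples lay 1.35-fold and 1.37-fold apart. Hist1h2ad, Hist1h2ag, Hist1h2ao and Hist1h2af had differences of -0.33, -0.36, -0.36 and -0.34 and the same order of samples, with cKO 2 the lowest in each.

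Without cKO 2 the median of the H2A class was -0.10, and without cKO 1 it was -0.54. Hist3h2a was chosen after its values were seen, as the only H2A gene with higher cKO scores: it had 0.0105 and 0.0125 in control and 0.0155 and 0.0130 in cKO, a difference of 0.31 ± 0.14 (limma adjusted p = 0.255). Only 2.8% of its 38-base windows occurred in another H2A gene, and its exons overlap those of Trim17. Of the H2A genes under the filter, Hist1h2al, also chosen after its values were seen, had the lowest ratio, with 0.000290 and 0.000570 in control and 0.000130 and 0.000150 in cKO. If a step is 1 read, this gene rested on 1 to 4 reads per sample, and 79.5% of its windows were shared.

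The H4 genes differed little between groups. Both cKO samples were above both controls for 5 of the 13 members and below for 0. Among all genes with a score above 0, 23.1% lay above and 21.8% below. For the 11 H4 genes that passed the filter, the log2 fold changes had a median of 0.11 (0.01 to 0.16), and limma called 0 of them, with 0 at an unadjusted p under 0.05. Hist1h4i, the highest, was at 0.0230 and 0.0192 in control and 0.0222 and 0.0238 in cKO (0.13 ± 0.11, adjusted p = 0.531). Hist1h4n had a difference of 0.03 ± 0.14 (adjusted p = 0.926) and Hist1h4b of 0.11 ± 0.09 (adjusted p = 0.518), and in these 3 genes the difference was little more than its standard error or less.

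In the H3 class the cKO scores were above both controls for 3 of the 12 members, below for 0, and overlapped for 9. The count above is near the share over all genes with a score above 0, where 23.1% lay above and 21.8% below. Without the filter the median of the H3 genes was -0.19 (-0.73 to 0.45). In that fit limma called 0 of all 21582 genes at the adjusted threshold, so its 0 calls in H3 are not particular to the class. At an unadjusted p under 0.05 there were 0 H3 genes, where 1665 of all genes were higher and 1538 lower. Hist1h3b and Hist1h3d had differences of -0.24 and -0.29, and Hist2h3b, from the chromosome 3 cluster, was at 0.00203 and 0.00211 in control and 0.00316 and 0.00249 in cKO (0.42, adjusted p = 0.392 without the filter). The control samples differed more in this class than in the other classes, with control 1 at 0.0313 and control 2 at 0.0201 in the class sum.

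Among the linker histones, Hist1h1c alone reached the filter. It was at 0.00545 and 0.00646 in control and 0.0108 and 0.00799 in cKO, a difference of 0.64 ± 0.19 (limma adjusted p = 0.139), and the groups did not overlap. Hist1h1e was at 0.000740 and 0.00116 in control and 0.00173 and 0.00106 in cKO, so its groups overlapped. Hist1h1b was at 0.000250 and 0.000480 in control and 0.000480 and 0.000170 in cKO, at which level a gene rests on few reads.

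Summed over the class, H2B was 0.0797 and 0.0896 in control and 0.158 and 0.134 in cKO, 1.73-fold higher in cKO. The corresponding ratios were 0.832 for H2A, 1.49 for H1, 1.06 for H4 and 0.923 for H3. The H1 sum was mostly Hist1h1c, and its log2 ratio of 0.578 was 0.184 by geometric mean of the members and 0.317 to 0.800 with one sample left out. That of H2A was -0.27, and -0.494 without cKO 1 and -0.0693 without cKO 2. With all samples, the groups separated in H2B, H2A and H1 but overlapped in H4 and H3. The histone total was 0.818 and 0.781 in control and 0.863 and 0.706 in cKO, with a ratio of 0.982. The cKO samples lay on either side of the controls, so this ratio averages samples that differed, and H2A made up most of each total. A ratio of classes within a sample does not depend on library size. The ratio of H2B to H2A, singled out after the class values were seen because it pairs the highest ratio with the lowest, was 0.150 and 0.173 in control and 0.316 and 0.361 in cKO, 2.10-fold higher. The ratio of H2B to H4 was 1.61-fold and that of H2A to H4 0.779-fold in cKO over control, both without overlap, and that of H4 to H3 was 1.15-fold with overlapping groups. An exact two-sided permutation test of 2 samples against 2 cannot give a p below 0.33, and it gave 0.33 for H2B, for H2A, for H1 and for the ratios that did not overlap.

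**Figure D3:**
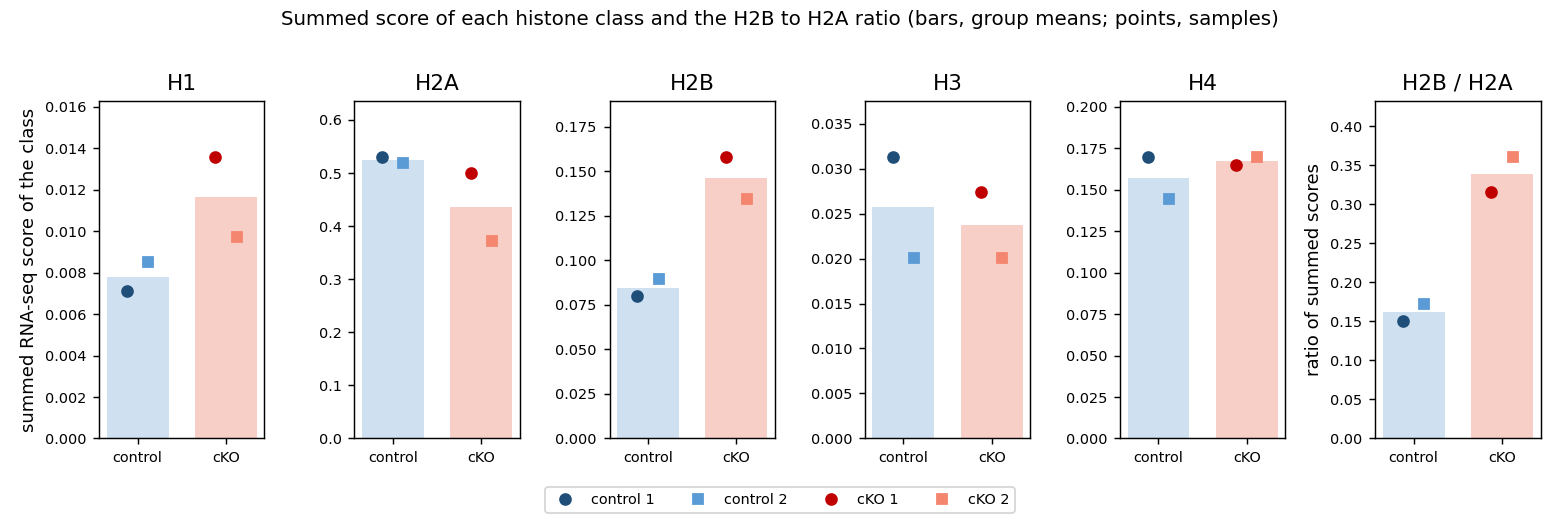
Summed RNA-seq score of each class (no stated unit, axes start at 0) and the ratio of the H2B to the H2A sum, with bars for group means and points for the samples. The H2B sum is 0.0797 and 0.0896 in control and 0.158 and 0.134 in cKO, and the ratio is 0.150 and 0.173 against 0.316 and 0.361.

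The difference in H2B was set against the sequence each gene shares with its copies. The 8 H2B genes with at least 60% shared windows had log2 differences of 0.77 to 0.91, and cKO was above control in all 8. For the 8 with 20 to 60% shared, the median was 0.74 and cKO was above in 6. For the 3 under 20%, the values were 0.10 to 0.73 and cKO was above in 2. Long exon sequence outside the coding region lowers the share, as in Hist1h2be, so a low share need not mean a unique coding sequence. Across the 19 H2B genes Pearson's r was 0.53 and Spearman's rho 0.57, and across the 19 H2A genes -0.20 and -0.17. They were 0.68 and 0.33 across the 13 H4 genes, which differed little between groups, and -0.12 and 0 across the 11 annotated H3 genes. The points share libraries and, where windows are shared, may share reads, so these are descriptions only.

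**Figure D4:**
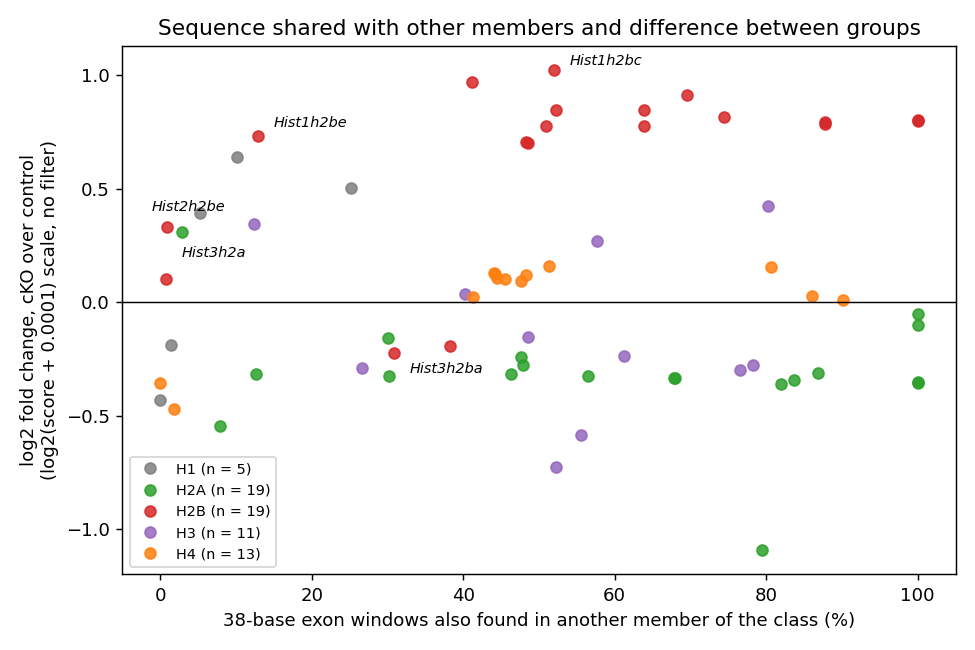
Log2 fold change of cKO over control (log2(score + 0.0001) scale, no filter) against the percent of a gene's 38-base exon windows that also occur in another member of its class, for the 67 annotated members. H2B genes with 60% or more shared windows lie between 0.77 and 0.91, and Hist2h2be and Hist3h2a, with 0.9% and 2.8% shared, lie at 0.33 and 0.31.

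The members were also divided by the sequence features at their 3' ends. The 62 genes with the stem-loop had a median log2 difference of 0.03 without the filter and included genes from -0.73 to 1.02. The 10 genes with an AATAAA near the annotated end had a median of 0.23 (-0.47 to 1.02) and the 56 without had 0.03 (-1.09 to 0.97). No test was made of either feature, and an annotated end that lies before the stem-loop may hide a later AATAAA.

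Other RNAs that normally lack a poly(A) tail were examined beside the histone genes, since their level in a poly(A)-selected library reflects carry-over or a short A tract. Rn7sk, the 7SK RNA that holds the elongation factor P-TEFb inactive, was at 0.0350 and 0.0337 in control and 0.0676 and 0.0513 in cKO (log2 difference 0.78 ± 0.14, limma adjusted p = 0.0624). Rnu7, the U7 RNA of histone 3' end processing, was at 0.0148 and 0.0163 in control and 0.0225 and 0.0178 in cKO (0.36 ± 0.13, adjusted p = 0.203). Malat1, a nuclear RNA with an end formed by RNase P, was at 0.183 and 0.187 in control and 0.247 and 0.225 in cKO (0.35 ± 0.08, adjusted p = 0.107).

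Of these 3, the only ones of 13 listed that reached the filter, none passed the adjusted threshold. All 3 had an unadjusted p under 0.05 on the higher side, where 10.8% of all genes tested did. The cKO samples were above the controls in each, as they were for 28.1% of all genes tested. Others of the list, under the filter and chosen after their values were seen, lay on the other side: Rpph1, the RNA of RNase P, was at 0.00457 and 0.00339 in control and 0.00246 and 0.00205 in cKO, and Rmrp, the RNA of RNase MRP, at 0.00121 and 0.00158 in control and 0.000540 and 0.000620 in cKO. Vaultrc5 was at 0 in each control sample and at 0.000140 and 0.000160 in cKO, while the groups overlapped for Terc and Rnu12. The listed RNAs past the filter were thus all higher in cKO, and those under it, at low scores, differed in direction. The 27 small non-coding RNA genes past the filter had a median of -0.11, with 0 called. At an unadjusted p under 0.05, 2 were higher and 2 lower, where 10.8% and 11.5% of all genes tested were. The summed score of all 140 small non-coding RNA genes listed, with or without the filter, was 0.637 and 0.628 in control and 0.585 and 0.581 in cKO. The part of poly(A) selection in the H2B difference was not tested.

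Genes that act on histone genes and histone mRNA showed no change that passed the test. Of 23 genes for histone gene transcription and mRNA processing past the filter, limma called 0 and the median was 0.02. At an unadjusted p under 0.05, 3 were higher and 0 lower, where 10.8% and 11.5% of all genes tested were. Slbp, which binds the stem-loop, was at 0.0742 and 0.0783 in control and 0.0678 and 0.0691 in cKO (-0.15 ± 0.08, adjusted p = 0.312). Npat, a coactivator of histone gene transcription, was at 0.00948 and 0.00921 in control and 0.00940 and 0.00909 in cKO (-0.02 ± 0.10, adjusted p = 0.941).

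Of 23 histone chaperone and deposition genes, limma called 0, and the median was -0.11. At an unadjusted p under 0.05, 0 were higher and 3 lower, where 10.8% and 11.5% of all genes tested were. The histone genes listed as expressed not only in S phase, which can make polyadenylated mRNA, gave 9 genes past the filter with a median of -0.09, 0 called, and 0 higher and 1 lower at an unadjusted p under 0.05. H2afz was at 0.384 and 0.357 in control and 0.336 and 0.369 in cKO (-0.07 ± 0.09, adjusted p = 0.643). H3f3a was at 0.521 and 0.589 in control and 0.554 and 0.571 in cKO (0.02 ± 0.09), H3f3b had -0.18 ± 0.10 and H2afx, which also carries the stem-loop, -0.07 ± 0.08. The score of H3f3a alone was more than 10 times the summed score of the H3 class in every sample.

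Genes of S phase had lower scores in cKO. Of 37 past the filter, 35 had a log2 fold change below 0, where 51.8% of all genes tested did, and the median was -0.25. At an unadjusted p under 0.05, 19 were lower and 0 higher, where 11.5% and 10.8% of all genes tested were. At the adjusted threshold 1 fell, where 1.25% of all genes tested did. That gene, Pola1, the catalytic subunit of DNA polymerase α, was at 0.0253 and 0.0212 in control and 0.0116 and 0.0114 in cKO (-1.01 ± 0.11, limma adjusted p = 0.0294). The summed S phase score was 2.26 and 2.16 in control and 1.72 and 1.96 in cKO. It was lowest in cKO 1, whereas the H2A sum was lowest in cKO 2 and the H2B sum was higher in both cKO samples.

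Markers of other cells were also measured in these samples. The 10 B cell markers were all present, with 0 called higher and 1 lower: Cd79a, the signaling chain of the B cell receptor and the locus that carries the Cre, was at 0.667 and 0.743 in control and 0.415 and 0.407 in cKO (-0.78 ± 0.08, limma adjusted p = 0.0294). Of the 10, 7 had a log2 fold change below 0. At an unadjusted p under 0.05, 4 were lower and 1 was higher, where 11.5% and 10.8% of all genes tested were. The 15 T and NK cell markers summed to 0.0369 and 0.0487 in control and 0.0771 and 0.0707 in cKO, with 1 past the filter (Lck, 0.83 ± 0.16, limma adjusted p = 0.0734) and Gzma at 0 in all samples. Most of that sum was Lck, at 0.0318 and 0.0437 in control and 0.0690 and 0.0636 in cKO. Of those under the filter, at low scores and named after their values were seen, Cd3d, Cd3e, Cd3g, Zap70 and Nkg7 had both cKO scores above both controls. Cd28 and Prf1 had both below, and the others overlapped or, as Gzma, were at 0. The 14 myeloid markers found summed to 0.185 and 0.175 in control and 0.219 and 0.220 in cKO, with 4 past the filter and S100a9 at 0. Named after their values were seen, the members differed: most of that sum was Itgam, at 0.141 and 0.150 in control and 0.135 and 0.158 in cKO, while Lyz2, a lysozyme of macrophages and granulocytes, was at 0.0205 and 0.0112 in control and 0.0485 and 0.0329 in cKO (1.39 ± 0.31, limma adjusted p = 0.0961) and Lyz1 had a difference of 1.46 ± 0.33 (adjusted p = 0.0986). Cd68 (0.75 ± 0.31, limma adjusted p = 0.225) and, under the filter, Cd14, Csf1r and Emr1 also had both cKO scores above both controls. The other myeloid markers found, Itgam among them, overlapped or were at 0. Erythroid markers summed to 0.00330 to 0.0145, with control 1 the highest and Slc4a1 at 0. Of these 3 lists, limma called 0 genes, with 1, 2 and 0 higher and none lower at an unadjusted p under 0.05. The T, NK and myeloid sums were higher in cKO, as the H2B sum was, the T and NK sum mostly through Lck. The part of these cells in the H2B difference was not tested.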

How the data were processed

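The authors sequenced poly(A)-selected RNA of 2 control and 2 cKO B cell samples, mapped 38-base reads to mm9 with TopHat (TopHat2 2.0 and CASAVA 1.8 in the submitters' processing notes), filtered them by base quality and against rRNA and tRNA annotations, and deposited an RNA-seq score for each gene. How reads became the score is not given in the sources used here. The label gives the LPS concentration in another unit than the methods, so none is printed.

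Tables were joined by gene identifier, since each was sorted by its own score. Genes whose highest score was 0.005 or more (9727) were log2-transformed after adding 0.0001 and fitted in limma 3.58.1 (R 4.3.3) with a variance trend. Their p-values were adjusted by Benjamini-Hochberg, and the threshold was 0.05. Fold changes on this scale understate the change of low genes. The test was checked on simulated data. Sums were compared by exact permutation in Python 3.11.15 (pandas 2.3.3, numpy 2.4.6), and Spearman's rho across members was computed with scipy 1.17.1. Members matched GENCODE on NCBIM37 by symbol. The stem-loop search used a 16-base form, 1 base shorter than the form first written down. The members and gene lists were chosen with earlier results of these data known.

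Genes named are the 3 highest of each class by mean score, members past an adjusted p of 0.05, the 5 with the largest rises and the 5 with the largest falls past the filter, members past the filter with more than a 4-fold gap within a group (0 found), Nfkbiz, some replication-independent histone and processing genes, and list genes called. Others are said to have been chosen after their values were seen. Alternatives were other filters, pseudocounts, scalings and variance models, a replicate block, and leaving out each sample. No confidence interval from counts is given, because the files hold no counts.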

Additional observations from a re-analysis of the deposited data

How the results depend on the processing

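The median difference of the H2B genes kept its direction under every alternative run, between 0.69 and 0.93, but the number of H2B genes called did not hold. No clustered histone gene passed the filter above 0.05, so that filter gave no value for them. The 5 calls became 0 without a filter, where 0 of all genes were called in either direction (at an unadjusted p under 0.05, 1538 were lower and 1665 higher), 2 with a mean score of at least 0.005, 3 with a pseudocount of 0.001, 0 without a variance trend and 1 after quantile normalization, and 0 to 10 with one sample left out. In the latter fits limma assumes that the lone sample varies like the other group. Over all genes, 122 lower and 79 higher became 22 and 11 without a variance trend and 88 and 35 with the filter above 0.05, and with one sample left out 0 to 391 lower and 0 to 439 higher. The labels number the samples of both groups 1 and 2 but state no pairing, and same-numbered samples correlated at -0.145 (Spearman -0.291). With the replicate number as a block there were 180 lower and 177 higher, and 7 histone genes higher, and the block also called Rn7sk (limma adjusted p = 0.0179), Lck (0.0228), Lyz2 (0.00124) and Lyz1 (0.00458) as higher. In a crossed block, chosen after seeing the data, there were 230 lower and 212 higher, and 9 histone genes higher. With one sample left out, the median of the 43 members ranged from 0.008 to 0.198 and that of H2A from -0.538 to -0.102, and the log2 ratio of summed scores from -0.494 to -0.0693 in H2A, -0.0214 to 0.211 in H4, 0.317 to 0.800 in H1, -0.400 to 0.238 in H3 and -0.179 to 0.111 in the total. The log2 ratio of H1 was 0.184 by geometric mean, in place of 0.578. Of single genes, H3f3a changed sign without control 1 (-0.0659), Npat without control 1 (0.0052) and without cKO 2 (0.0085, in a range of -0.0393 to 0.0085), Hist1h4i without control 2 (-0.0008, in a range of -0.0008 to 0.259), Hist1h4n without control 2 (-0.145) and cKO 2 (-0.0657), and H2afz after quantile normalization (0.0672). These genes passed the threshold in no such fit, and the cause of these changes was not tested. Of 215 values of 18 named histone genes, 174 kept direction and side of the threshold, 32 lost the call, 6 gained it and 3 changed sign. If a step is 1 read, the 4 H1 genes other than Hist1h1c rested on 2 to 32 reads per sample, Hist1h1c on 152 to 337 and Hist1h2bl, a called H2B gene, on 49 to 105.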
